A study of Mus musculus with 2 samples.

Results

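The mitochondrial ribosomal protein genes of the mouse were taken as the protein-coding genes whose symbol is Mrpl or Mrps followed by a number, with or without a closing letter. The rule found 78 genes among 22028 protein-coding genes and 55536 annotated genes. Their RNA was taken from left cerebral cortex tissue. The donors were 2 B6CASTF1/J males, 2 months old, of a first-generation hybrid between C57BL/6J and CAST/EiJ. One library per animal was made from 300 ng of total RNA after removal of ribosomal RNA, with ERCC synthetic RNAs added as spike-ins. Both libraries, replicate 2 and replicate 1, belong to a single group, so the design holds no comparison between conditions, and no p-value is given. The values describe the level of each gene, its transcript forms and how far the animals lay apart.

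Mitochondria carry their own ribosome, which translates only the mRNAs encoded by the mitochondrial genome. Those mRNAs encode subunits of the respiratory chain and of the ATP synthase, on which neurons depend heavily for energy. The rRNAs of this ribosome come from the mitochondrial genome, whereas its proteins are encoded by nuclear genes, made in the cytosol and imported. The small subunit reads the mRNA and the large subunit joins the amino acids. Many of the proteins have a counterpart in bacterial ribosomes, and the others were added in the mitochondrial lineage.

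By the current nomenclature of the mitochondrial ribosome, 51 members belong to the large subunit and 26 to the small subunit. The large subunit members comprise 30 with a bacterial counterpart and 21 specific to mitochondria. The small subunit members comprise 16 with a bacterial counterpart and 10 specific to mitochondria. Mrps30 and Mrps18a carry a small-subunit symbol but are counted in the large subunit. Mrps36 was placed in neither, because its product is now described as a component of the oxoglutarate dehydrogenase complex. The genes are scattered over the genome. Chromosome 11 holds 11 of them, chromosome 17 holds 8 and chromosome 6 holds 7, and no member lies on chromosome 12, 18, X or Y.

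Every member was expressed. All 78 genes reached a TPM (a transcript abundance corrected for length and scaled to a fixed total per library) of at least 1 in both libraries, the threshold used for detection. The median level was 23.1 TPM in replicate 2 and 24.7 TPM in replicate 1. The median of all 12934 detected protein-coding genes was 15.96 TPM in replicate 2 and 16.01 TPM in replicate 1. The members kept to a narrow band. Averaged over the animals, 70 of the 78 lay between 10 and 50 TPM, 3 lay above 50 and 5 below 10. The upper quartile of the members was 1.86 times the lower quartile, against 5.60 times for all detected protein-coding genes. Cytosolic ribosomal protein genes (2.03 times, 77 genes) and nuclear genes for oxidative phosphorylation subunits (2.11 times, 86 genes) also had narrow bands. Together the members took 0.389% of the TPM of all protein-coding genes in replicate 2 and 0.403% in replicate 1.

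**Figure D1:**
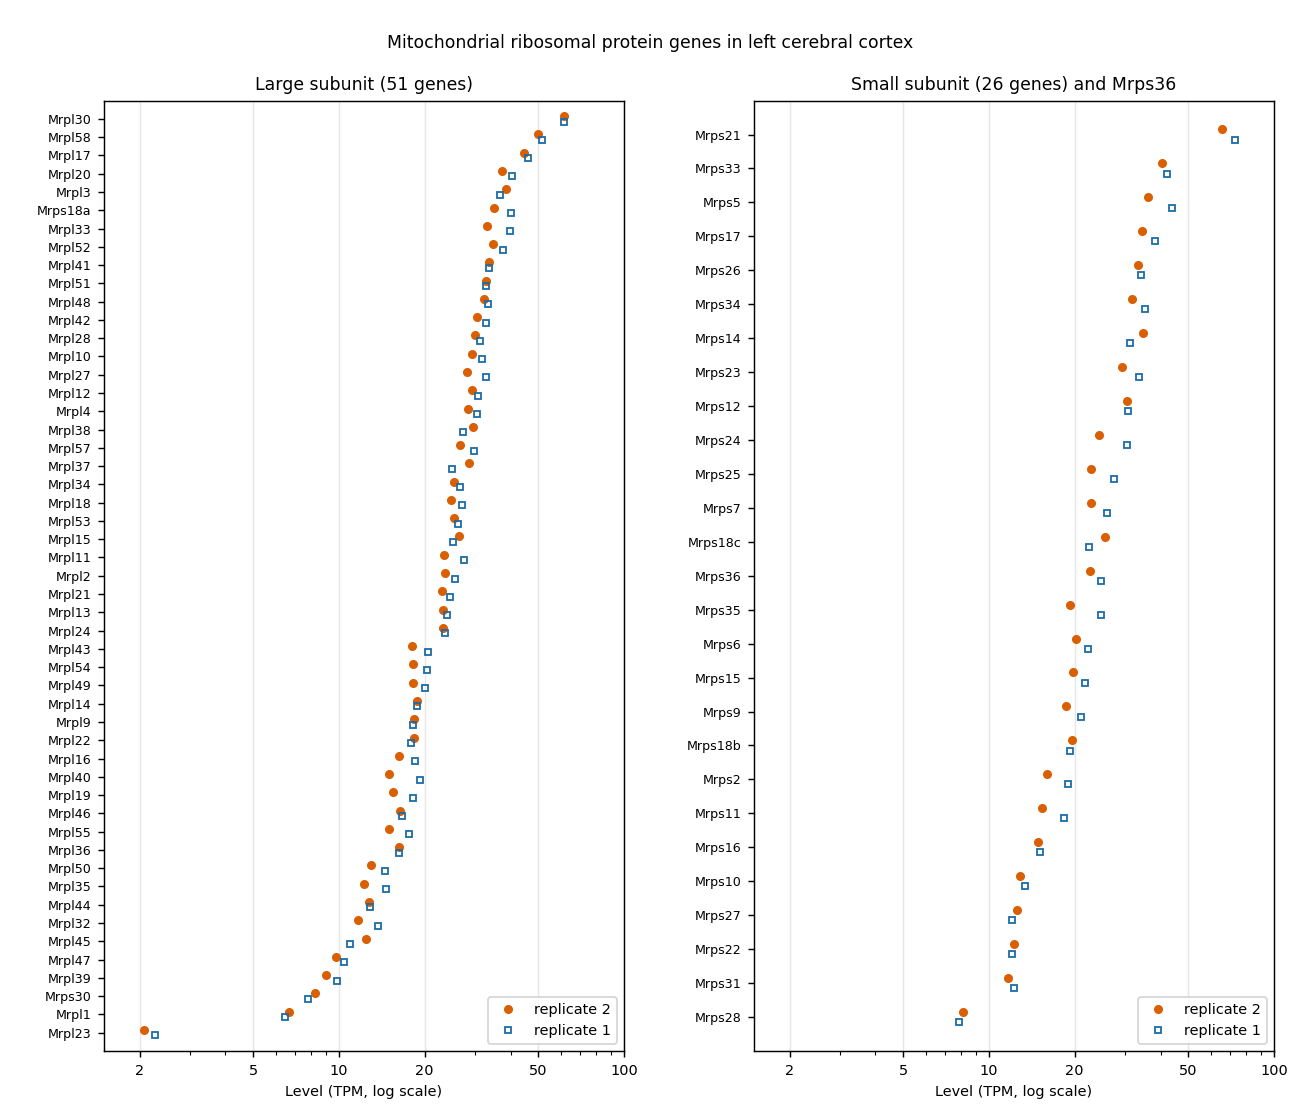
Level of each of the 78 members in TPM on a log scale, with filled circles for replicate 2 and open squares for replicate 1 (1 library each). Most genes of both subunits lie between 10 and 50 TPM, with Mrps21 and Mrpl30 at the top and Mrpl23 alone near 2 TPM.

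Both subunits had nearly the same level per gene. The large subunit had a median of 23.28 TPM in replicate 2 and 25.03 TPM in replicate 1. The small subunit had a median of 21.5 TPM in replicate 2 and 23.5 TPM in replicate 1. Summed over genes, the large subunit reached 1215 TPM in replicate 2 and 1281 TPM in replicate 1, and the small subunit 632.7 and 687.4 TPM in the same libraries. The ratio of the sums, large over small, was 1.92 in replicate 2 and 1.86 in replicate 1, near the ratio of the gene numbers. Members with and without a bacterial counterpart were at similar levels. Large-subunit members with a bacterial counterpart had a median of 24.1 TPM over the animals, against 25.8 TPM for those specific to mitochondria. Small-subunit members with a bacterial counterpart had a median of 22.6 TPM, against 23.5 TPM for those specific to mitochondria. Members are not replicates of a condition, so these medians are descriptions without a test.

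In the small subunit, Mrps21 (ENSMUSG00000054312.6, chr3:95862634-95871519, minus strand, build mm10) was the highest gene of the whole family in the gene table. The gene encodes the mitochondrial counterpart of bacterial S21, and its level was 65.6 TPM in replicate 2 and 73.0 TPM in replicate 1. The mitochondria-specific Mrps33 followed at 40.4 TPM in replicate 2 and 42.3 TPM in replicate 1. Mrps5 and Mrps17, both with bacterial counterparts, came next. Mrps5 was at 36.3 TPM in replicate 2 and 43.8 TPM in replicate 1, and Mrps17 at 34.5 and 38.1 TPM. The range of Mrps5 over the animals overlapped those of Mrps33 and Mrps17, while Mrps21 stood above all others in the gene table. In the other deposited quantification, described further on, Mrps21 had 91.01 TPM in replicate 2 and 103.2 TPM in replicate 1, below Mrps33 in both libraries.

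At the other end of the small subunit, Mrps28 was at 8.14 TPM in replicate 2 and 7.86 TPM in replicate 1. Mitochondria-specific proteins lay just above it. Mrps31 was at 11.7 TPM in replicate 2 and 12.2 TPM in replicate 1, and Mrps22 at 12.2 and 12.1 TPM. Mrps27, which encodes a protein with pentatricopeptide repeats, a fold that binds RNA, was at 12.5 TPM in replicate 2 and 12.1 TPM in replicate 1. The order of those 3 genes differed between the animals, whereas Mrps28 was below each of them in both.

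In the large subunit, Mrpl30 (ENSMUSG00000026087.11, chr1:37890477-37898535, plus strand) stood highest, with 61.5 TPM in replicate 2 and 61.4 TPM in replicate 1. Mrpl58 encodes a protein built into the large subunit that retains the activity of a peptidyl-tRNA hydrolase, which frees stalled chains from the ribosome. The level of Mrpl58 was 50.01 TPM in replicate 2 and 51.4 TPM in replicate 1. Mrpl17 and Mrpl20, both with bacterial counterparts, were at 44.6 and 37.5 TPM in replicate 2 and at 45.9 and 40.3 TPM in replicate 1. The order of these 4 genes was the same in both animals. They led by mean level, and in replicate 2 Mrpl3 (38.4 TPM) was above Mrpl20. In the other quantification Mrpl30 had a mean of 105.4 TPM, Mrpl27 102.2 TPM, Mrpl3 100.7 TPM and Mrpl58 78.5 TPM. Mrpl17 had 34.3 TPM there, below the large subunit's median of 39.3 TPM.

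The low end of the large subunit reached further down. Mrpl23 (ENSMUSG00000037772.13, chr7:142532686-142540747, plus strand), a counterpart of the bacterial protein beside the exit of the peptide tunnel, had 2.07 TPM in replicate 2 and 2.26 TPM in replicate 1. Its assignment of reads is described further on. Mrpl1, the counterpart of the protein of the L1 stalk, had 6.67 TPM in replicate 2 and 6.46 TPM in replicate 1. Mrps30 was at 8.25 TPM in replicate 2 and 7.78 TPM in replicate 1, and Mrpl39 at 9.04 and 9.86 TPM. Without Mrpl23, the highest member was 10.6 times the lowest. Levels and deposited mean transcript lengths ran against each other, with a Spearman correlation of -0.41 across the 78 genes, and all values share the same libraries and the length correction of TPM.

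Several members have roles beyond a structural place. Mrpl12, the counterpart of the stalk protein L7/L12 that recruits translation factors, had 29.2 TPM in replicate 2 and 30.8 TPM in replicate 1. Mrpl44, whose protein has a fold like that of RNase III, had 12.7 TPM in replicate 2 and 12.9 TPM in replicate 1. Mrpl40, whose human orthologue lies in the region lost in the 22q11 deletion syndrome, had 15.04 TPM in replicate 2 and 19.25 TPM in replicate 1. Mrps12, the counterpart of the decoding-centre protein S12, had 30.5 TPM in replicate 2 and 30.6 TPM in replicate 1. Mrps36 had 22.6 TPM in replicate 2 and 24.7 TPM in replicate 1, close to the median of the ribosomal members.

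Bacterial S18 has 3 relatives in the mitochondrial ribosome, encoded by Mrps18a, Mrps18b and Mrps18c. Mrps18a, whose product sits in the large subunit, was the highest in both animals, with 35.0 TPM in replicate 2 and 40.1 TPM in replicate 1. Mrps18c was at 25.5 TPM in replicate 2 and 22.4 TPM in replicate 1. Mrps18b was at 19.6 TPM in replicate 2 and 19.2 TPM in replicate 1. The ranges of the 3 genes over the animals did not overlap.

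Between animals, the levels were close. The coefficient of variation of TPM over the animals had a median of 5.80% across members and a maximum of 17.4%. Ordered by mean level, 65 of the 77 neighbouring pairs of members had ranges that overlapped over the animals, so most places in the order are not separated by the spread.

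The other parts of the machinery were compared as whole lists. Of 5 mitochondrial ribosomal proteins with other symbols, all 5 were detected. Dap3, a GTP-binding protein of the small subunit, had 49.98 TPM in replicate 2 and 49.43 TPM in replicate 1. Aurkaip1 had 44.8 TPM in replicate 2 and 46.9 TPM in replicate 1, and Ptcd3, a pentatricopeptide repeat protein, had 33.03 and 31.71 TPM. Chchd1 had 20.9 TPM in replicate 2 and 23.8 TPM in replicate 1. Gadd45gip1, the only one of the 5 in the large subunit, was the lowest, with 10.6 TPM in replicate 2 and 12.3 TPM in replicate 1.

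Genes that serve the ribosome without being part of it were lower. Mitochondrial translation factors (11 genes, all detected) had a median of 10.6 TPM in replicate 2 and 10.2 TPM in replicate 1. Tufm, the elongation factor that brings tRNAs to the ribosome, led them with 41.3 TPM in replicate 2 and 41.8 TPM in replicate 1. Gfm1, the factor for translocation, had 25.4 TPM in replicate 2 and 24.8 TPM in replicate 1, and the initiation factor gene Mtif2 had 15.1 and 14.9 TPM. Mitochondrial tRNA synthetases (17 genes, all detected) had a median of 12.2 TPM in replicate 2 and 10.9 TPM in replicate 1. Assembly factors of the mitochondrial ribosome (22 genes, all detected) had a median of 8.53 TPM in replicate 2 and 8.55 TPM in replicate 1. The RNA helicase gene Dhx30 stood apart among them, with 76.5 TPM in replicate 2 and 82.3 TPM in replicate 1.

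Genes for oxidative phosphorylation and for the cytosolic ribosome were higher than the members. Nuclear oxidative phosphorylation subunits had a median of 100.2 TPM in replicate 2 and 106.7 TPM in replicate 1, and 81 of the 86 were detected. The 13 mRNAs of the mitochondrial genome had a median of 1773 TPM in replicate 2 and 1858 TPM in replicate 1. The 77 genes of the cytosolic ribosome had a median of 166.6 TPM in replicate 2 and 181.1 TPM in replicate 1. That median was 7.21 times the members' in replicate 2 and 7.34 times in replicate 1.

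The deposited data hold another quantification of the same libraries, made from the reads of 1 sequence file rather than from the alignment, and its TPM values were summed per gene. All 78 members were detected there too. Its level was higher for 77 of the 78, with a median ratio of 1.63, and the sum over all protein-coding genes was 1.65 times as high. Relative to that shift most members kept their level. The Spearman correlation of the levels was 0.868 across the 78 genes, and both quantifications share the libraries. The share of protein-coding TPM held by the members was 0.413% in replicate 2 and 0.430% in replicate 1. The ratio of large to small subunit was 1.97 in replicate 2 and 1.93 in replicate 1.

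**Figure D2:**
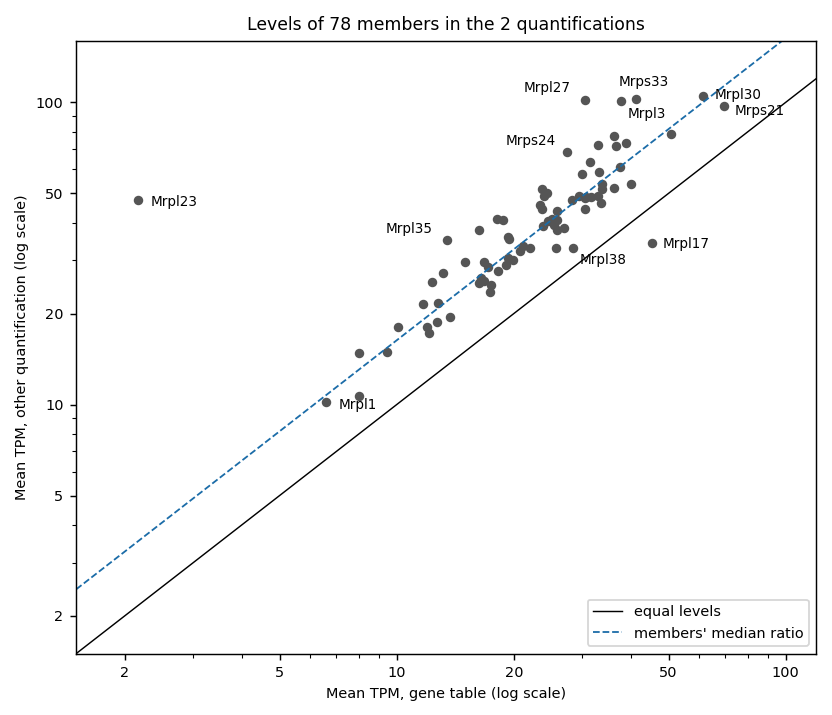
Mean level over the animals of each member in the gene table (horizontal) and in the other quantification (vertical), both in TPM on log scales, with lines for equal levels and for the members' median ratio. Most points follow the dashed line at 1.63 times, while Mrpl23 lies at 21.9 times and Mrpl17 alone lies below the line of equal levels.

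Mrpl23 differed most between the quantifications, lowest of all members in the gene table and above the members' median in the other. It had 45.5 TPM in replicate 2 and 49.4 TPM in replicate 1 in the other quantification, 21.9 times its mean in the gene table. A processed pseudogene, Mrpl23-ps1 (chr2:74591330-74591909), took the opposite course, with 24.2 TPM in replicate 2 and 24.8 TPM in replicate 1 in the gene table and 0 in both libraries in the other quantification. In expected counts, the gene and the pseudogene together had 319 in replicate 2 and 330 in replicate 1 in the gene table, and 340 and 344 in the other quantification. The deposited posterior SD, a measure of how uncertain the sharing of reads is, was 24.4% of the count of Mrpl23 in replicate 2 and 29.5% in replicate 1. No other member exceeded 2.20%, and 74 of the 78 were under 1%.

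The whole coding sequence of Mrpl23-201 (441 bases) is present in the pseudogene without a mismatch. The first 60 coding bases and the matching stretch of the pseudogene, from the GENCODE M21 transcripts, are given here 5′ to 3′ in lower case, since no base differs. Bases 1 to 60 of the coding sequence match bases 18 to 77 of the pseudogene transcript.
Mrpl23-201: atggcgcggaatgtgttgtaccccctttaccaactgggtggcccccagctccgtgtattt
Mrpl23-ps1: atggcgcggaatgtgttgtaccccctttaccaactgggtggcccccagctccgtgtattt
Of all words of 31 bases in Mrpl23-201, 77.0% are also in Mrpl23-ps1, and 94.6% of the words of the pseudogene are in Mrpl23-201. Another coding form, Mrpl23-206, is covered in part, with 424 of its 519 coding bases aligned to the pseudogene. Mrpl23-206 held 72.55% of the gene's TPM in replicate 2 and 54.01% in replicate 1 in the other quantification. In the gene table's quantification it held 0% in both. The level of Mrpl23 in the gene table is uncertain, and the sum of gene and pseudogene there was 26.31 TPM in replicate 2 and 27.04 TPM in replicate 1.

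Pseudogene copies of other members took fewer reads. Gm5776, a processed pseudogene on chromosome 7, differs from the coding sequence of Mrps33-201 at 1 of 321 bases. It had 13.5 TPM in replicate 2 and 14.9 TPM in replicate 1 in the gene table and 0 in both in the other quantification. The stretch around the difference is shown with the differing base in capitals, at bases 141 to 200 of both sequences.
Mrps33-201: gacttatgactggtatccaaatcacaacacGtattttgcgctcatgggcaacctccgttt
Gm5776: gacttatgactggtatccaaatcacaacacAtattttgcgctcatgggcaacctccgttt
Mrps33 itself had 99.9 TPM in replicate 2 and 105.6 TPM in replicate 1 in the other quantification, 2.48 times its mean in the gene table. Gm13328 is 98.7% identical to Mrps5-201 over 1016 aligned coding bases and had 2.31 TPM in replicate 2 and 1.97 TPM in replicate 1. A stretch of 60 bases with 4 differences, in capitals, stands here for a less similar copy.
Mrps5-201: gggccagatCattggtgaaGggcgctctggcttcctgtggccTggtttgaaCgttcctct
Gm13328: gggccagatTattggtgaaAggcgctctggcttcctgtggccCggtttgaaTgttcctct
Mrpl48-ps, which is 97.4% identical to Mrpl48-207 over 342 coding bases, had 5.83 TPM in replicate 2 and 5.17 TPM in replicate 1. Some members also share sequence with an annotated gene that overlaps them. Mrpl53 shares 84.4% of its words with Gm42688, and Mrps34 shares 35.6% with Nme3.

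Mrpl17 was the only member lower in the other quantification. It had 33.5 TPM in replicate 2 and 35.1 TPM in replicate 1 there, 0.757 times its mean in the gene table. The next smallest ratios were 1.16 for Mrpl38, 1.28 for Mrpl15, 1.33 for Mrps30 and 1.34 for Mrps5. After Mrpl23, the largest ratios were 3.35 for Mrpl27, 2.68 for Mrpl3, 2.60 for Mrpl35 and 2.51 for Mrps24. Mrpl27 reached 100.9 TPM in replicate 2 and 103.6 TPM in replicate 1 in the other quantification, against 28.1 and 32.9 TPM in the gene table.

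The transcript tables separate the annotated forms of each gene. The 78 members have 343 annotated transcripts, with a median of 4 per gene. Transcripts annotated as protein coding held 74.0% of the members' TPM in replicate 2 and 74.4% in replicate 1. Over all detected protein-coding genes, that share was 84.1% in replicate 2 and 85.4% in replicate 1. Transcripts with a retained intron held 13.0% of the members' TPM in replicate 2 and 12.4% in replicate 1, against 8.26% and 7.20% over all detected genes. Transcripts annotated as targets of nonsense-mediated decay, the pathway that degrades mRNAs with an early stop codon, held 5.30% in replicate 2 and 5.34% in replicate 1, against 2.62% and 2.60% over all detected genes. Forms called processed transcripts, which have no annotated reading frame, held 7.71% in replicate 2 and 7.87% in replicate 1, against 5.04% and 4.85% over all detected genes. In the other quantification, processed transcripts held 12.8% of the members' TPM in replicate 2 and 13.1% in replicate 1, against 6.49% and 6.12% over all detected genes. Retained introns held 10.8% in replicate 2 and 9.67% in replicate 1 there, against 9.19% and 8.22% over all detected genes. Targets of nonsense-mediated decay held 4.58% in replicate 2 and 5.18% in replicate 1 there, against 3.45% and 3.30%, and both gaps were smaller than in the gene table's quantification.

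In 16 of the 78 members (20.5%), the most abundant transcript was not annotated as protein coding, against 7.26% of the detected protein-coding genes. Of the 16, the leading form was a processed transcript in 6, a target of nonsense-mediated decay in 5 and a retained intron in 5. In 13 of the 78 members the leading form was noncoding in both quantifications, against 622 of the 12923 detected genes with transcript values. Protein-coding forms held less than 50% of the TPM in 17 members (21.8%), against 9.94% of the detected genes, and 13 of the 17 (76.5%) remained so in the other quantification, close to the share among the detected genes (76.1%). Across genes the medians were closer, with a protein-coding share of 87.8% for the members and 89.2% for the detected genes. TPM divides reads by transcript length, so a form shorter than the others of its gene weighs more here than in reads.

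**Figure D3:**
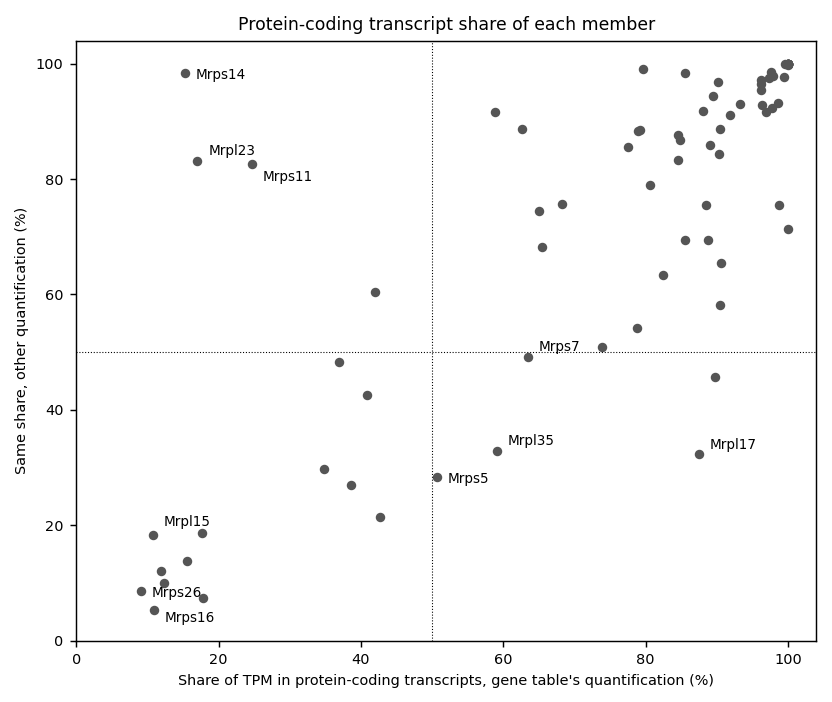
Share of each member's TPM in transcripts annotated as protein coding, averaged over the animals, in the gene table's quantification (horizontal, %) and in the other quantification (vertical, %), with dotted lines at 50%. Members at the lower left, such as Mrps26 and Mrps16, had a low share in both, whereas Mrps14, Mrpl23 and Mrps11 at the upper left had a low share in 1 quantification only.

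The 5 most abundant of those 16 members were Mrpl3, Mrps26, Mrps14, Mrpl51 and Mrpl57. In Mrps26, a small-subunit gene specific to mitochondria, the retained-intron form Mrps26-201 held 90.7% of the TPM in replicate 2 and 91.2% in replicate 1. The other quantification gave 91.1% in replicate 2 and 91.6% in replicate 1 for the same form. In Mrpl57, the retained-intron form Mrpl57-202 held 84.3% in replicate 2 and 84.6% in replicate 1. In Mrpl51, the processed transcript Mrpl51-202 held 45.1% in replicate 2 and 50.6% in replicate 1. These 3 genes kept the same leading form in both quantifications.

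Mrps14 and Mrpl3 depended on the quantification. In Mrps14, a counterpart of bacterial S14, the form Mrps14-201, annotated for nonsense-mediated decay, held 83.43% in replicate 2 and 86.04% in replicate 1. In the other quantification that form held 0% in replicate 2 and 3.15% in replicate 1, and the coding form Mrps14-202 held 92.1% and 88.6%. In Mrpl3, a counterpart of the protein near the peptidyl transferase centre, the leading form was a target of nonsense-mediated decay in both, but not the same one. Mrpl3-204 held 24.6% in replicate 2 and 35.6% in replicate 1, and Mrpl3-206 held 32.8% and 29.1% in the other quantification.

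The leading transcript was the same in both quantifications for 57 of the 78 members (73.1%), against 78.1% of detected protein-coding genes. The 5 most abundant members without the same leading form were Mrps21, Mrpl17, Mrps33, Mrps5 and Mrpl3. For Mrps21 the choice lay between coding forms. Mrps21-202 held 68.5% in replicate 2 and 79.3% in replicate 1 of the gene table's quantification, while Mrps21-201 held 100% in both libraries of the other. For Mrpl17, the coding form Mrpl17-204 held 49.5% in replicate 2 and 57.2% in replicate 1, while the other quantification gave it 0% and led with Mrpl17-203, a form annotated for nonsense-mediated decay, at 63.2% and 72.3%.

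The animals differed little. The comparison used expected counts, normalised with edgeR's TMM factors, and gave the log2 ratio of replicate 2 over replicate 1 with an exact 95% interval that covers counting error only. In total, replicate 2 held 32142918 expected counts, replicate 1 held 33007629, and the members had a median of 488.5 counts. No member was 2-fold apart (0 of 78), against 1.8% of the 18490 genes compared and 0.263% of the detected protein-coding genes, so a count of 0 does not set the members apart. The bounds of all 78 intervals lay between -0.50 and 0.51, so counting error did not reach 2-fold (a log2 ratio of 1) for any member. The members' median was -0.06, that of all genes compared was 0.00 and that of detected protein-coding genes -0.01. In all, 60 of the 78 members had a ratio under 0, against 49.9% of the genes compared and 54.7% of detected protein-coding genes, whereas under spike-in scaling none of the 78 did. Spike-in scaling adds nearly the same amount (between 0.310 and 0.319) to every member's ratio and moved the median of all genes to 0.32 and that of the members to 0.26. The sign of a ratio thus depends on the scaling, while the distance of the members from all genes does not.

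**Figure D4:**
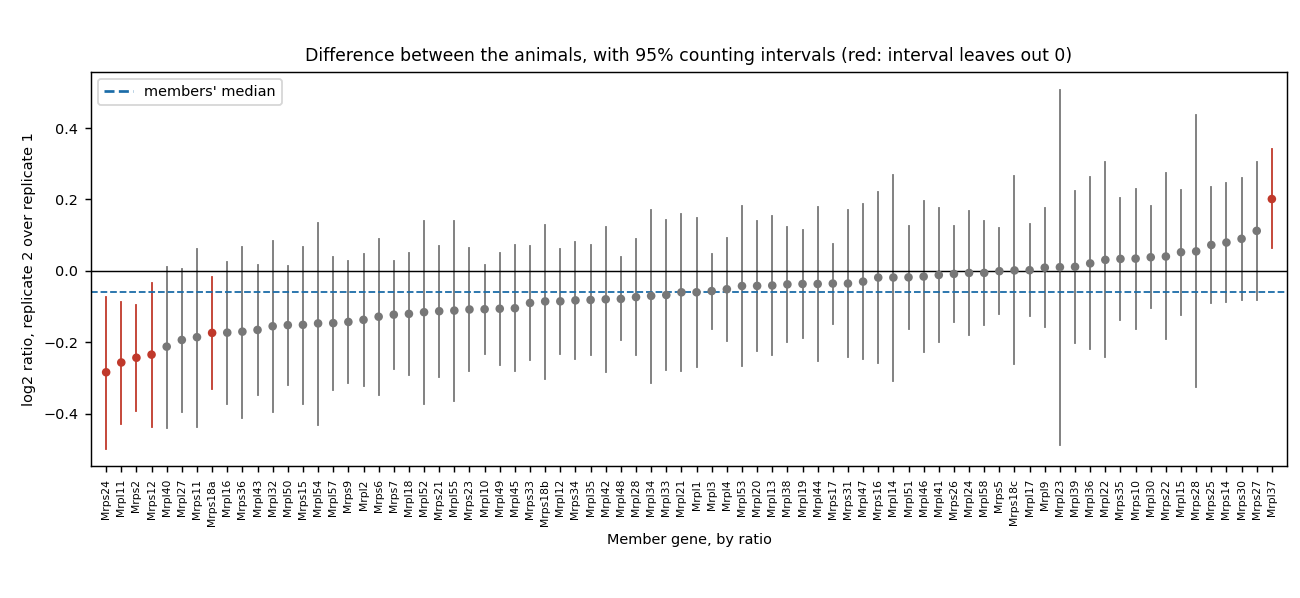
log2 ratio of replicate 2 over replicate 1 for each member, ordered by ratio, with 95% intervals for counting error, under TMM normalisation. Of the 78 points, 60 lie below 0 and none reaches 1 or -1, and the 6 red genes have intervals that leave out 0; under spike-in scaling all 78 lie above 0.

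Only 6 of the 78 members had an interval that left out 0, 5 lower and 1 higher in replicate 2. That rate of 7.69% was below the 22.6% of all genes compared and the 19.7% of the 9265 genes with mean counts in the members' range. Those intervals hold counting error alone, and with 1 animal on either side the spread within a group cannot be measured. The count of 6 was 11 in the other quantification and 56, all higher in replicate 2, under spike-in scaling. Spike-in scaling also moved the median of all genes compared to 0.32. Shares of all genes called under those settings are not given here, so these counts do not set the members apart.

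Mrps24, a counterpart of bacterial S3, was the lowest in ratio, with 334 counts in replicate 2 and 416 in replicate 1, a log2 ratio of -0.28 (interval -0.50 to -0.07). Mrpl11, part of the base of the stalk that binds translation factors, had 510 counts in replicate 2 and 623 in replicate 1, a log2 ratio of -0.26. Mrps2, a counterpart of bacterial S2, had 690 counts in replicate 2 and 835 in replicate 1 (-0.24), Mrps12 had 374 and 450 (-0.23) and Mrps18a had 621 and 716 (-0.17). By the shift common to all genes, all 5 were above 0 under spike-in scaling. They were below 0 in the other quantification, between -0.29 for Mrps24 and -0.20 for Mrpl11. For Mrps12 the counts differed while the TPM was nearly equal, and the deposited length, a mean over its transcript forms, was 672.9 bases in replicate 2 and 773.7 bases in replicate 1.

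Mrpl37, specific to the mitochondrial large subunit, was the only member higher in replicate 2 beyond counting error. It had 905 counts in replicate 2 and 804 in replicate 1, a log2 ratio of 0.20 (interval 0.06 to 0.34), and 0.18 in the other quantification. The next highest, Mrps27 (0.11), Mrps30 (0.09) and Mrps14 (0.08), had intervals that included 0.

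Related lists lay on the same side of 0 under TMM, except the synthetases. The median log2 ratio was -0.08 for cytosolic ribosomal proteins, -0.07 for nuclear oxidative phosphorylation subunits, -0.14 for the mitochondrial mRNAs and -0.12 for the mitochondrial ribosomal proteins with other symbols. It was 0.04 for mitochondrial tRNA synthetases, and under spike-in scaling all 5 of these medians were above 0. Markers of some cell types and neighbouring regions also moved between the animals, while other lists had small median log2 ratios. The 5 astrocyte markers summed to 1376.8 TPM in replicate 2 and 1374.2 TPM in replicate 1, with a median log2 ratio of -0.04. The 5 microglia markers summed to 86.3 and 94.06 TPM (median -0.05), and the 4 endothelium markers to 87.31 and 90.88 TPM (median 0.01). The 6 striatal markers summed to 135.2 TPM in replicate 2 and 240.4 TPM in replicate 1, and all 6 were lower in replicate 2. The 5 markers of mature oligodendrocytes summed to 619.6 TPM in replicate 2 and 765.8 TPM in replicate 1, the 4 blood markers to 365.5 and 445.0 TPM, and the 4 choroid plexus markers to 94.5 and 12.4 TPM, of which Folr1 was listed at 0 in replicate 1. Ttr carried most of the choroid plexus sum, and the other 3 markers together had 5.34 TPM in replicate 2 and 3.80 TPM in replicate 1. Of the 4 blood markers, 3 were lower in replicate 2 beyond counting error. The blood marker Alas2 went the other way, with 2.07 TPM in replicate 2 and 1.45 TPM in replicate 1. The 5 inhibitory neuron markers summed to 481.7 TPM in replicate 2 and 522.6 TPM in replicate 1, with a median log2 ratio of -0.14 and 4 of the 5 lower beyond counting error. The 5 excitatory neuron markers of the labelled cortex were all detected and summed to 2686 TPM in replicate 2 and 2599 TPM in replicate 1. The part of these differences in the members' ratios was not tested, and in bulk tissue fewer cells of a type and less RNA per cell cannot be told apart.

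A head-to-head layout, which the symbol rule did not use, was found for part of the genes. The annotated start of 33 of the 78 members (42.3%) lay within 1000 bases of the start of a protein-coding gene on the opposite strand, reading away from it or overlapping its first part. The same held for 15.3% of detected protein-coding genes and 10.8% of all protein-coding genes. The 33 members formed 32 pairs, and 25 of the 31 partners that are not members were detected. Of all 2386 protein-coding genes with this layout, 1981 were detected, so the count of 25 does not set the partners apart. In 1 pair both genes are members: Mrps11 (plus strand) and Mrpl46 (minus strand) on chromosome 7. By the outermost GENCODE M21 bounds of these genes, they start 412 bases apart and overlap. The RefSeq promoter window of Mrpl46, printed further on, lies wholly inside those bounds and rests on another start. The distance and the overlap thus depend on the annotation. Mrps11 had 15.3 TPM in replicate 2 and 18.3 TPM in replicate 1, and Mrpl46 had 16.4 and 16.7 TPM.

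Some of the 31 partners that are not members also act in mitochondria, and those below are examples. The partners were not scored for function, and they also include Hira, Gga3, Fau and Rab6a. Mrps12 lies beside Sars2, the mitochondrial serine-tRNA synthetase, with starts 172 bases apart, and Sars2 had 6.16 TPM in replicate 2 and 6.42 TPM in replicate 1. Mrpl36 lies beside the complex I subunit Ndufs6, with 78.3 TPM in replicate 2 and 81.0 TPM in replicate 1, against 16.3 and 16.2 TPM for Mrpl36. Mrpl47 lies beside the complex I subunit Ndufb5, with 92.69 TPM in replicate 2 and 92.01 TPM in replicate 1, against 9.80 and 10.4 TPM for Mrpl47. Mrpl43 lies beside Twnk, the helicase of mitochondrial DNA, and Mrps27 beside Ptcd2. In these pairs the complex I subunit was several times higher. Others were below the detection threshold: Eme1, beside Mrpl27, was at 0.07 TPM in both replicate 2 and replicate 1.

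Promoter windows from RefSeq on build GRCm38.p6, from 250 bases before to 50 bases after a gene start, were found for 69 of the 78 members, 75 windows in all. They were searched on both strands for short cores of motifs known from promoters of nuclear genes for mitochondria. ETS-type factors such as GABPA and the factors NRF1 and YY1 are known regulators of such genes. The 4 windows printed here belong to the head-to-head pair of members, to Mrps12 beside Sars2 and to Mrps21, the highest member in the gene table, each 5′ to 3′ on the strand of its gene, with matches to the searched NRF1, ETS and YY1 cores in capitals.
Mrps11, chr7:78782881-78783180, plus strand: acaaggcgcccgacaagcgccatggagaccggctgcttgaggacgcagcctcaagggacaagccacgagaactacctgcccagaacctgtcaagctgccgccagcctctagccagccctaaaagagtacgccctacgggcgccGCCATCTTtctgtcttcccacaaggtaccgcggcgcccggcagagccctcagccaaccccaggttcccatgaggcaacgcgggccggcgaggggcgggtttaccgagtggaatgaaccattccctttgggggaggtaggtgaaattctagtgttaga
Mrpl46, chr7:78783040-78783339, minus strand: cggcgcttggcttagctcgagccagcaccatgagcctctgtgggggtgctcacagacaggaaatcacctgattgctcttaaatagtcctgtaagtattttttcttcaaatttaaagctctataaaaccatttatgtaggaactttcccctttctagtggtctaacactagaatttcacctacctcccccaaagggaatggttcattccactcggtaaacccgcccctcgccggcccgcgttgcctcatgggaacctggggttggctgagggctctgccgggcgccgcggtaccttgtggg
Mrps12, chr7:28741772-28742071, minus strand: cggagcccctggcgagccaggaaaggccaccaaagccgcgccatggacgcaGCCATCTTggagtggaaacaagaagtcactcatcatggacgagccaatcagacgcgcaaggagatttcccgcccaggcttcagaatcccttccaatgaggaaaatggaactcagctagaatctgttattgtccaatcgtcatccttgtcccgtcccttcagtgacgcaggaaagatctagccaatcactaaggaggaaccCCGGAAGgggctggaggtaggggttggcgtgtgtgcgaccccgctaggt
Mrps21, chr3:95871465-95871764, minus strand: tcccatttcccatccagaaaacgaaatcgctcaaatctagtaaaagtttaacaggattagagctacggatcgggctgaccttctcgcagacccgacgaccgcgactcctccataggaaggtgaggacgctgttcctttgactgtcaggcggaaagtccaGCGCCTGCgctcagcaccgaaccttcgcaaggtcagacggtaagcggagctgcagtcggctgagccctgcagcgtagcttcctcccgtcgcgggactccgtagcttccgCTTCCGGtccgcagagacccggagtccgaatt
The window of Mrps11 holds a YY1 core, that of Mrps12 a YY1 core and an ETS core, and that of Mrps21 an NRF1 core with a free base and an ETS core, and the window of Mrpl46 holds none of them. A match describes letters and not a bound site.

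The ETS core CCGGAAG was present in 26 of the 75 member windows (34.7%), against 11.6% of 21262 windows of protein-coding genes and 8.86% of all 32851 windows. The NRF1 core GCATGCGC was present in 8 (10.7%), against 3.51% of windows of protein-coding genes and 2.71% of all windows. With a free base at the fourth position, GCANGCGC, it was present in 22 (29.3%), against 12.6% and 9.61%, and these include every match to the stricter core. The YY1 core AAGATGGC was present in 12 (16.0%), against 3.05% and 2.75%. In the part before the start the YY1 core was present in 4 (5.33%), against 1.5% of windows of protein-coding genes. Most of its matches in members thus lie wholly or partly in the 50 bases after the start. The ETS core was present before the start in 18 (24.0%), against 8.98% of windows of protein-coding genes. The stricter NRF1 core stayed at 8 (10.7%), against 2.93%. The CCAAT box (CCAAT) was about as frequent as elsewhere, in 30 windows (40.0%) against 38.2% for protein-coding genes. The TATA box (TATAAA) was present in 5 (6.67%), against 12.6%. The E-box CACGTG was present in 7 (9.33%), against 7.84%. The 75 windows include overlapping windows of the same gene, each counted on its own. All Mrpl2 windows overlap, and each holds the E-box and the CCAAT box. The member windows were richer in G and C, with a median of 58.7% against 56.3% for protein-coding genes and 52.7% for all windows, and the part of this base composition in the matches was not tested.

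**Figure D5:**
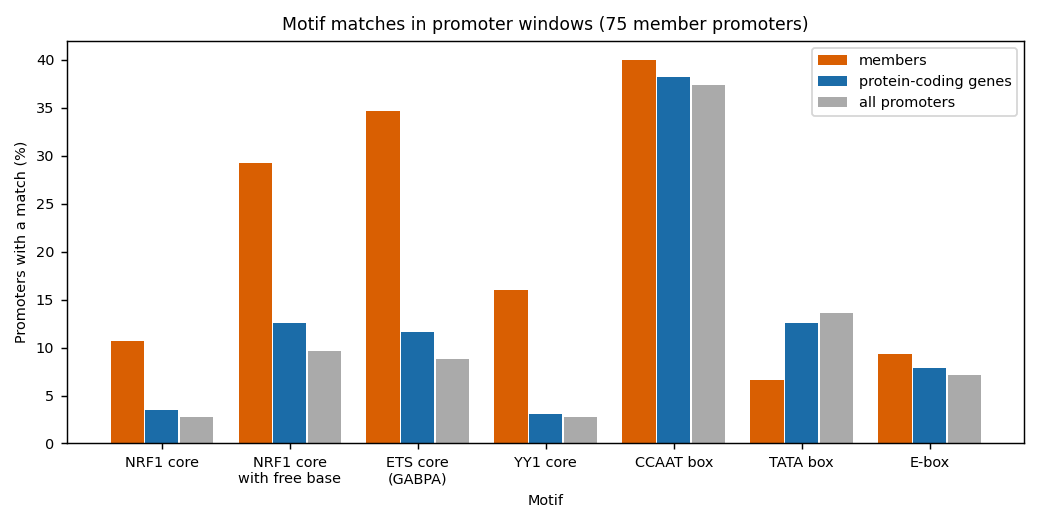
Share of promoter windows with at least 1 match to each motif on either strand, for the 75 member windows, the 21262 windows of protein-coding genes and all 32851 windows. The members' bars are higher than the others for the ETS, NRF1 and YY1 cores, close to them for the CCAAT box and E-box, and lower for the TATA box.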

How the data were processed

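Total RNA of the left cerebral cortex was sequenced in 2 libraries of 1 group, numbered replicate 2 and replicate 1 by the labels. The labels name separate males by number but 1 shared donor record, so that record is taken as the strain. The deposited gene and transcript tables hold expected counts, their posterior SD and TPM, which come from a transcriptome alignment on mm10 with GENCODE M21, per the file headers and the text deposited with them. The authors' other transcript table holds estimated counts and TPM made from 1 reads file, and whether that file holds all reads is not given in the sources used here, nor are the aligner and programs. How CAST/EiJ alleles affect assignment to the C57BL/6J build was not measured.

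For ratios, expected counts were rounded to whole numbers. Rows that name no gene (26248 rows, 2.48e-05% of the counts in replicate 2 and 1.78e-05% in replicate 1) and 96 spike-in rows (0.345% and 0.428%) were left out of library sizes. Ratios used edgeR 4.0.16 in R 4.3.3 (TMM, prior count 2, mean count of at least 10) with exact Clopper-Pearson intervals. The intervals cover counting error only, because 1 animal against 1 leaves no spread within a group to measure. No molecular identifiers mark single molecules, and the intervals treat every count as separate. Shared sequence was measured as shared words of 31 bases, with Biopython 1.88 for alignments.

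Members, lists, motifs and the naming rule were chosen with earlier results of these data known. The rule took the 4 highest and 4 lowest members of each subunit and in ratio, members beyond counting error, chosen paralogues and functional examples, the 5 most different between quantifications in each direction, the 5 most abundant with a noncoding or changed leading transcript, and the top genes of other lists. Pseudogenes and head-to-head partners were named after their values were seen. Alternatives were spike-in scaling, size factors from DESeq2 1.42.0, log2 TPM with pseudocounts, other prior counts and minimums, the other quantification and leaving out an animal. For motifs, the alternative was the part of the window before the start only. A planned comparison of protein sequences was not run.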

Additional observations from a re-analysis of the deposited data

How the results depend on the processing

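With the other quantification, the mean over the animals of the summed TPM was 2204 for the large subunit and 1130 for the small subunit. In place of the gene table's values, the ratio of the sums was 1.95 and the median member was at 40.4 TPM. In that quantification 11 members were beyond counting error, and the median share of the leading transcript was 74.9%. With spike-in scaling, the median log2 ratio of the members was 0.26, no member (0) was below 0 and 56 were beyond counting error. Mrpl11 (0.061), Mrps12 (0.083), Mrps18a (0.14), Mrps2 (0.075) and Mrps24 (0.033) changed sign, because this scaling raises every member's ratio by between 0.310 and 0.319. Shares of all genes beyond counting error are not given for these settings. The counts of 11 and 56 therefore do not set the members apart. DESeq2 size factors, pseudocounts of 1 and 0.1 on TPM, a count minimum of 100 or none, a prior count of 0.5 and leaving out Mrpl23 for its shared reads kept the members' median ratio negative, and no alternative gave a member a 2-fold difference. Leaving out either animal gave a median level between 23.1 and 24.7 TPM and a ratio of subunit sums between 1.86 and 1.92. All 78 members were detected at 0.1 TPM and 77 at 5 TPM. With promoter windows cut to the part before the start, 24.0% of member windows held the ETS core and 5.33% the YY1 core. No paired analysis was possible because the study has a single group. With 1 animal on each side of the ratio, the spread within a group cannot be measured. At this depth, a median of 488.5 counts per member, a ratio whose interval included 0 could not be told from counting error.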
